A study of Sus scrofa with 8 samples.

Results

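A set of 51 genes used as markers of endothelial cells, the cells that line blood and lymph vessels, was followed in pig hearts. The genes were chosen by symbol as known markers, with no threshold on their measured values. Of the 51 symbols, 40 named a row of the expression table of 18975 genes. The symbols of 4 further genes were not used there, but their gene IDs were: ICAM1 (as ICAM-1), TIE1 (as TIE-1), S1PR1 (as EDG1) and ESAM, whose row carried no name. The remaining 7 symbols (CDH5, SOX18, ICAM2, PLVAP, TEK2, APLNR and NOTCH1) matched no row and were not analysed here. A level of at least 1 FPKM (fragments counted on a gene, divided by its exon length and by the size of the library) in at least 2 libraries was required for testing. It was reached by 38 of the 40 members and by 11913 of the 18975 genes. The other two members, SELE and SELP (the E- and P-selectins that capture leukocytes), stayed under 1 FPKM in all 8 libraries.

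The hearts came from male pigs 6 months old, of the Tibetan or Yorkshire breed, raised at highland or lowland. The 4 groups were Tibetan highland (TH), Tibetan lowland (TL), Yorkshire highland (YH) and Yorkshire lowland (YL), with 2 libraries each. A log2 fold change for a pair of groups, such as TL to YL, is the first group minus the second. A positive value therefore means a higher level in the first group. Where the values of both pools of a group are given together, replicate 1 comes first. Each library was made from pooled RNA of 4 pigs, so differences between single animals were not measured, and p-values here reflect the spread between pools. No treatment other than the place of rearing was named, and the labels gave heart as the tissue.

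Endothelial cells form a single-layered barrier in every vessel and, in the heart, a dense capillary bed between the muscle fibres. They are recognised by junction and surface proteins such as PECAM1 and claudin 5, by secreted proteins of clotting such as von Willebrand factor, and by ETS and SOXF transcription factors that hold their identity. Receptors for BMP, VEGF co-receptors, Notch ligands and the apelin and adrenomedullin peptides guide their growth, and the lymphatic vessels carry a separate set of markers.

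Between 15687000 and 26722000 reads fell on genes per library. Mitochondrial genes took 57.7% (YH2) to 87.6% (TH1) of the summed FPKM, which was lowest in YL2 and highest in TH1. The libraries TH1 and YL2 stood apart. In YL2, 19 of the 20 kidney marker genes that could be found had their highest level, and 16 of them were under 1 FPKM in every other library. Their summed level was 9269 FPKM in YL2 and 5.79 to 31.8 FPKM elsewhere. The kidney tubule protein UMOD was at 947 FPKM in YL2, at 0.811 in TH2 and was listed at 0 in the other 6 libraries. Of 11 cardiomyocyte markers, 9 were lowest in YL2. Between TH1 and TH2, 10.9% of tested genes lay more than 1 apart on the log2 scale, against 2.02% in TL, 2.33% in YH and 19.1% in YL. Results that rest on TH1 or YL2 are therefore given with and without them.

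Endothelial genes were readily detected in all 8 pools. The median level of the 38 tested members was 6.65 and 10.19 FPKM in the TH pools, 9.03 and 8.73 in the TL pools, 8.66 and 9.74 in the YH pools and 8.02 and 5.56 in the YL pools. YL2 and TH1 were thus the lowest of the 8, and each lay below the partner library of its own group. The other 6 libraries spanned 8.02 to 10.19 FPKM. Scaled by the median ratio of each library to the geometric mean of all, TH1 (5.63) and YL2 (6.55) were still lowest. The others then spanned 7.78 (YL1) to 10.50 (TH2). The summed FPKM was 1.56e+06 in YL2, 4.02e+06 in YL1 and 8.56e+06 in TH1. Divided by these sums, the median of YL2 would no longer lie below that of YL1, so this rank depends on the scaling. Set against the median of all tested genes of the same library, on the log2(FPKM + 1) scale, the member median was 0.33 higher in TH1, 0.55 to 0.77 higher in the 6 libraries between, and lower by 0.11 in YL2 (a difference of -0.11). YL2 held the lowest value of 21 of the 38 members (55.3%), whereas it was lowest for 22.5% of all tested genes. TH1 was lowest for 12 members (31.6%, against 26.7% of all tested genes). In bulk heart RNA, fewer endothelial cells and less RNA per endothelial cell cannot be told apart. Whether the YL2 pool also held RNA of another organ, given its kidney marker levels, was not tested, and neither was the part of such RNA in the low YL2 values.

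**Figure D1:**
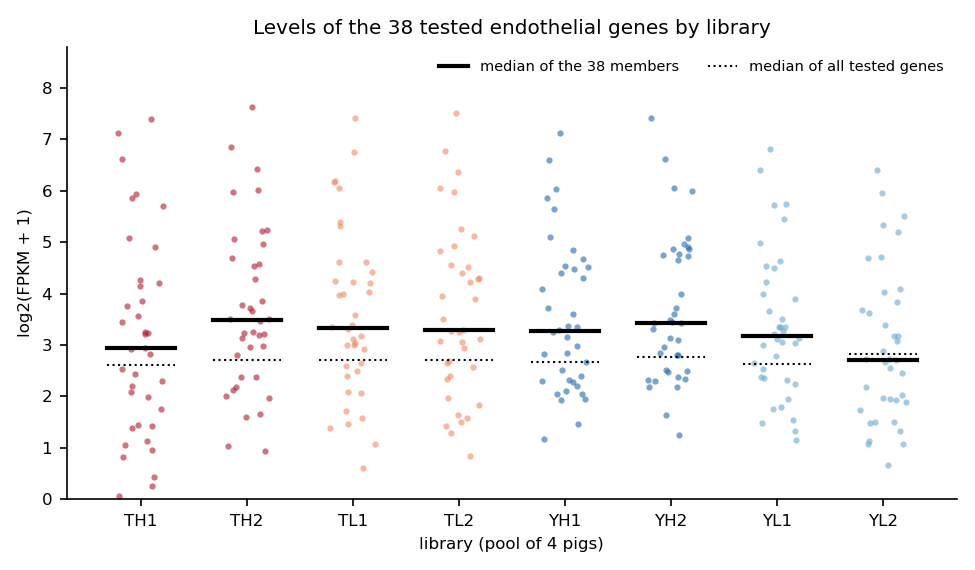
Level of the 38 tested endothelial genes in each library on the log2(FPKM + 1) axis: points are genes, the thick bar is their median and the dotted line the median of all 11913 tested genes in that library. The member median lies above the dotted line in 7 libraries and below it in YL2.

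Another list of 38 endothelial genes outside the set, 33 of which were found, was lowest in the same libraries. It includes the fatty acid transporter CD36 and the VEGF receptor KDR. Their summed level was 437 FPKM in YL2 and 545 FPKM in TH1, and 770 to 1038 FPKM in the other 6 libraries. TH1 held the lowest value of 17 of these genes and YL2 of 10.

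The members differed widely in level. CAV1, the scaffold protein of caveolae, was the highest by mean, with 138 and 196 FPKM in the TH pools, 171 and 182 in the TL pools, 139 and 171 in the YH pools and 112 and 44.9 in the YL pools. RAMP2, the accessory protein that turns the receptor CALCRL into an adrenomedullin receptor, followed with 168 and 114 FPKM in the TH pools, 107 and 109 in the TL pools, 96.2 and 96.9 in the YH pools and 83.4 and 61.2 in the YL pools. For RAMP2 each of the 4 Tibetan libraries lay above each of the 4 Yorkshire libraries. CALCRL itself was far lower, from 0.036 FPKM (1 read) in TH1 to 6.93 FPKM in TH2, so that receptor and accessory protein had different profiles over the 8 pools.

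**Figure D2:**
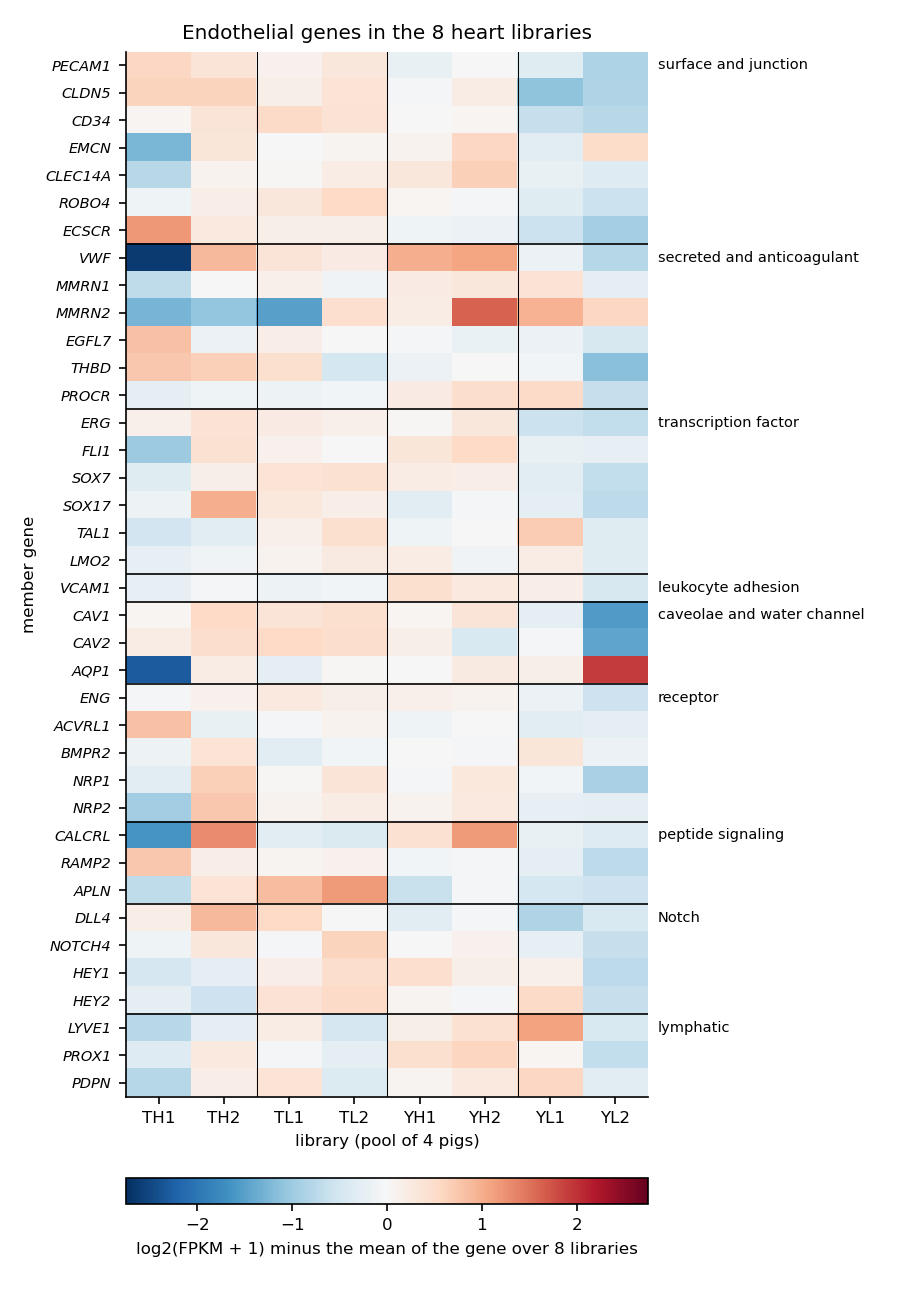
Each of the 38 tested members (rows, ordered by role) in each library (columns), as log2(FPKM + 1) minus the mean of that gene over the 8 libraries; red is above and blue below that mean. The YL2 column is below the mean in most rows and far above it for AQP1, and the TH1 column holds single strongly low genes such as VWF and AQP1.

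The first comparison asked how the breeds differ at lowland. Most members had a higher mean in TL than in YL, with the smallest unadjusted p for CLDN5, CD34 and ROBO4, but no member passed the test between TL and YL, for which a Benjamini-Hochberg adjusted p under 0.01 over all tested genes and a log2 fold change over 1 were required. With that rule 0.00839% of all tested genes were called. The direction was nevertheless shared by most members: 29 of 38 had a higher mean in TL, against 51.6% of all tested genes, and the median log2 fold change (TL to YL) was 0.55 for members and 0.02 for all tested genes. The member median was 0.33 without YL2 and 0.75 without YL1. At an unadjusted p under 0.05 in the limma fit, 12 members (31.6%) were higher in TL, where 5.9% of all tested genes were, and 0 were lower, where 3.04% of all tested genes were. In edgeR and DESeq2 fits of recovered reads the number of higher members was 10 in each. Of the 11913 tested genes, 600 were higher in edgeR and 607 in DESeq2. Without YL2 it was 7 (18.4%, against 5.83% of all tested genes), without TL2 it was also 7 (18.4%, against 2.64%), and without YL1 it was 18 (47.4%, against 11.8%). When each library was scaled to the same FPKM sum it was 0, against 0.705% of all tested genes. The median log2 fold change was then 0.22 for members and -0.23 for all tested genes. That scaling divided levels by 1.56 (YL2) to 8.56 (TH1) before 1 was added, which shrank differences of low genes unequally between libraries. Mitochondrial genes made up most of each sum, and the fit drew the spread of each gene wholly from the trend over all genes. Levels that did not overlap between the 2 TL and the 2 YL libraries were seen for 23 members higher in TL (60.5%, against 23.8%) and for 2 members lower in TL (5.26%, against 17.8%). The TL mean was above YL1 for 25 members and above YL2 for 34. A lone library meets the overlap rule more easily, so here and below its counts are not given with TH1 or YL2 left out.

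The surface and junction genes held 5 of these 12 members. Claudin 5 (CLDN5; Sscrofa10.2 chr14:54778677-54779334), the tight junction protein of endothelium, was at 23.6 and 27.5 FPKM in TL1 and TL2 and at 9.18 and 11.4 FPKM in YL1 and YL2. It was at 32.7 and 32.6 FPKM in TH1 and TH2 and at 20.1 and 24.1 FPKM in YH1 and YH2, so that both YL libraries lay under the other 6. The log2 fold change of TL over YL was 1.24 (SE 0.21, limma adjusted p = 0.187). It was 1.38 without YL2 and 1.10 without YL1.

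CD34 (chr9:148445970-148470659), a sialomucin on capillary endothelium and on blood stem cells, had the same order of groups at lowland. Its level was 40.8 FPKM in TL1 and 37.1 in TL2 and 17.6 in YL1 and 16.1 in YL2. At highland it was 29.0 and 36.0 FPKM in the TH pools and 27.9 and 29.1 in the YH pools. Again both YL libraries were the lowest of the 8, and both TL libraries were the highest. The log2 fold change of TL over YL was 1.16 (SE 0.20, limma adjusted p = 0.187), and it was 1.10 without YL2. In a DESeq2 fit of recovered reads CD34 was called (log2 fold change over 1, adjusted p = 0.00332), as the only member (2.63%) beside 1.47% of all tested genes called there, whereas over the other alternatives the adjusted p ran up to 1.

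PECAM1 (chr12:14660874-14717153), the adhesion molecule at endothelial cell contacts, was at 96.8 and 84.5 FPKM in the TH pools, 71.4 and 81.9 in the TL pools, 56.9 and 65.6 in the YH pools and 52.0 and 35.7 in the YL pools. The Tibetan and Yorkshire libraries did not overlap. The log2 fold change was 0.81 between TL and YL (SE 0.25, limma adjusted p = 0.408) and 0.55 without YL2. ROBO4, a receptor that stabilises vessels, was at 14.8 and 17.8 FPKM in the TL pools and at 9.17 and 7.49 FPKM in the YL pools, with 10.8 and 13.6 FPKM in the TH pools and 12.2 and 11.2 FPKM in the YH pools. ECSCR, an endothelial surface protein, was at 16.8 and 8.43 FPKM in the TH pools, 7.68 and 7.69 in the TL pools, 6.18 and 5.99 in the YH pools and 4.20 and 3.07 in the YL pools. For ECSCR the 4 Tibetan libraries were again above the 4 Yorkshire libraries, and TH1 alone was above 10 FPKM. CLEC14A, a surface lectin, differed less between TL (17.9 and 20.2 FPKM) and YL (14.9 and 13.3 FPKM), and it was 9.89 and 18.5 FPKM in the TH pools and 21.9 and 28.1 in the YH pools.

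**Figure D3:**
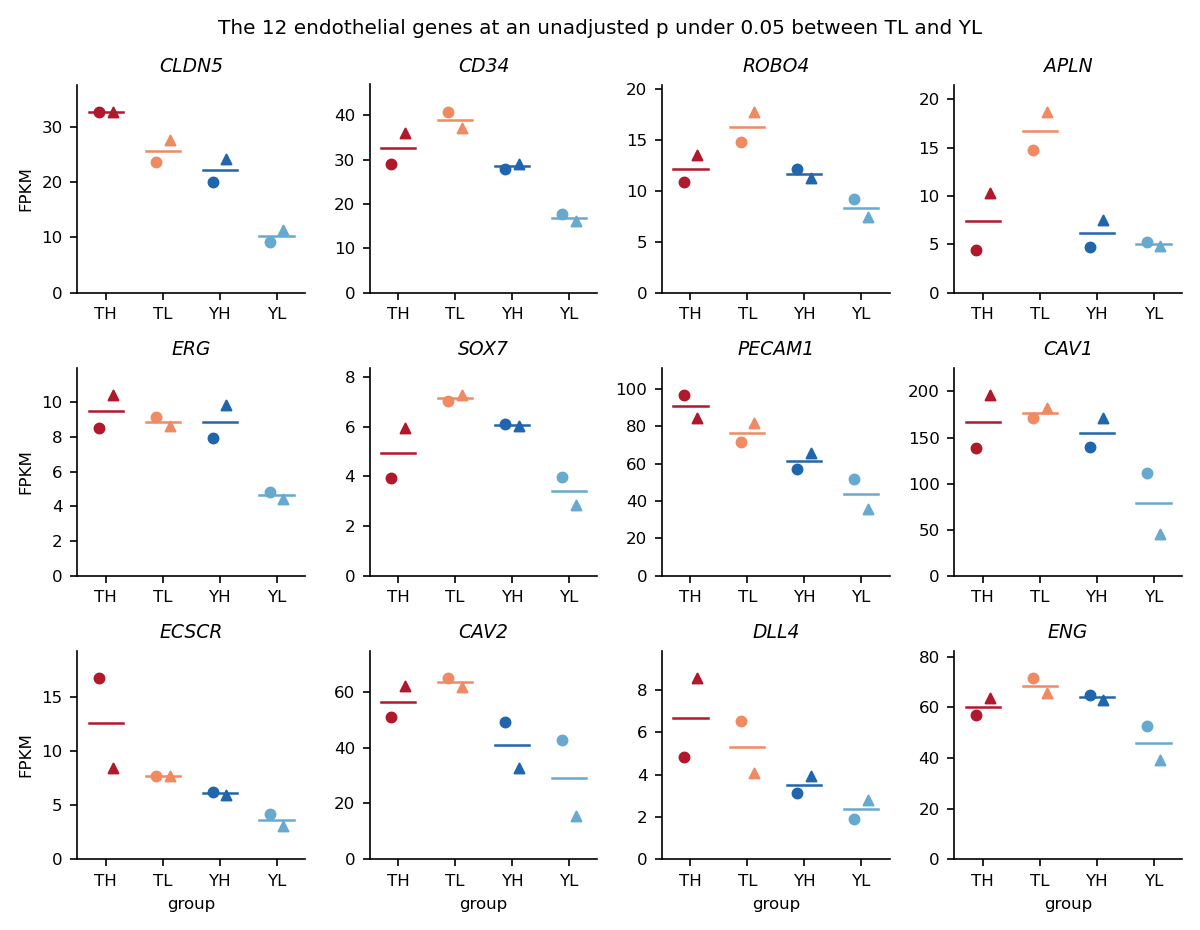
FPKM of the 12 members at an unadjusted p under 0.05 between TL and YL, by group; circles are replicate 1, triangles replicate 2 and bars the group mean. Both YL libraries lie below both TL libraries in all 12 panels, and CLDN5, CD34 and ERG show little spread between the 2 YL libraries while CAV1 and CAV2 show much.

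Among the 6 transcription factors, all had a higher mean in TL than in YL, by log2 fold changes of 0.10 to 0.90, and ERG and SOX7 were at an unadjusted p under 0.05. Without YL2 only 4 of the 6 were above 0, and TAL1 (-0.42) and LMO2 were below. ERG (chr13:212084503-212156974), an ETS factor that maintains endothelial identity, was at 9.15 and 8.63 FPKM in the TL pools and 4.82 and 4.45 FPKM in the YL pools. It was at 8.54 and 10.4 FPKM in the TH pools and 7.93 and 9.86 in the YH pools. ERG thus lay between 7.93 and 10.4 FPKM in 3 groups and under 5 FPKM in YL. Its log2 fold change of TL over YL was 0.81 (SE 0.21, limma adjusted p = 0.309), and it was 0.77 without YL2. SOX7, a SOXF factor of vessel development, was at 7.02 and 7.28 FPKM in the TL pools, 3.96 and 2.86 in the YL pools, 3.93 and 5.96 in the TH pools and 6.10 and 6.03 in the YH pools. Its lowest libraries were therefore YL2, TH1 and YL1. The hematopoietic and endothelial factor TAL1 was highest in YL1, with 8.30 FPKM in YL1 and 2.95 to 6.73 FPKM elsewhere.

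Of the signalling members, the Notch ligand DLL4 (chr1:145539039-145548819), found on arteries and sprouting tip cells, was at 6.55 and 4.08 FPKM in the TL pools and 1.90 and 2.81 FPKM in the YL pools. It was at 4.81 and 8.56 FPKM in the TH pools and 3.11 and 3.91 in the YH pools, and the 4 Tibetan libraries lay above the 4 Yorkshire libraries. All 4 tested Notch members (DLL4, NOTCH4 and the Notch targets HEY1 and HEY2) had a higher mean in TL than in YL, by log2 fold changes of 0.52 to 0.90, and without YL2 HEY2 was below 0 (-0.05). Apelin (APLN; chrX:122008972-122015190), a peptide made by growing vessels, was at 14.8 FPKM in TL1 and 18.7 in TL2 and at 5.25 in YL1 and 4.85 in YL2. It was at 4.39 and 10.3 FPKM in the TH pools and 4.73 and 7.55 in the YH pools, so that both TL libraries lay above all others. The log2 fold change of TL over YL was 1.54 (SE 0.38, limma adjusted p = 0.301), but only 4 to 22 reads per library stood behind these levels. Its receptor APLNR was among the symbols not matched.

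The receptor endoglin (ENG), a TGF-beta co-receptor of endothelium, was at 71.6 and 65.6 FPKM in the TL pools, 52.8 and 39.1 in the YL pools, 57.1 and 63.7 in the TH pools and 65.0 and 63.1 in the YH pools. NRP1, a VEGF and semaphorin co-receptor, was at 23.6 and 29.5 FPKM in the TL pools, 21.6 and 11.9 in the YL pools, 18.2 and 36.8 in the TH pools and 22.1 and 28.2 in the YH pools. NRP1 was lowest in YL2 and next lowest in TH1, the libraries that stood apart. The receptor kinase TIE1, matched by its gene ID and left out of the counts of members, was at 12.2 and 13.2 FPKM in the TL pools, 5.59 and 8.34 in the YL pools, 5.53 and 10.99 in the TH pools and 9.55 and 10.1 in the YH pools.

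For the caveolae genes the size of the difference between TL and YL depended on YL2, whereas its direction did not. CAV1 and its neighbour CAV2 (chr18:31745663-31780340 and chr18:31796923-31805190) are the structural proteins of caveolae, abundant in capillary endothelium and also present in muscle and fat cells. CAV2 was at 65.1 and 62.0 FPKM in the TL pools, 42.8 and 15.4 in the YL pools, 51.2 and 62.1 in the TH pools and 49.3 and 32.7 in the YH pools. The log2 fold change of TL over YL was 1.30 for CAV1 (SE 0.43, limma adjusted p = 0.435) and 1.27 for CAV2 (SE 0.46, limma adjusted p = 0.478). Without YL2 it was 0.65 for CAV1 and 0.56 for CAV2, and neither was then among the 7 members at an unadjusted p under 0.05. The 7 that were are CLDN5, CD34, ERG, ROBO4, APLN, DLL4 and SOX7.

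AQP1 and MMRN2 were the 2 members lower in both TL libraries than in both YL libraries. AQP1, the water channel of capillary endothelium and red cells and also of the kidney's proximal tubule, was at 17.6 and 22.02 FPKM in the TL pools, 24.0 in YL1 and 83.7 in YL2. It was at 3.60 and 24.8 FPKM in the TH pools and 21.4 and 25.6 in the YH pools, so that 6 libraries lay between 17.6 and 25.6 FPKM and YL2 and TH1 lay far outside on opposite sides. The log2 fold change of TL over YL was -1.15 (SE 0.85, limma adjusted p = 0.743) and -0.27 without YL2. The kidney markers were summed at 9269 FPKM in the same library, and their part in the AQP1 level was not tested. The hemoglobin gene HBB was at 1708 FPKM in TH1 and 290 FPKM in YL2. The 7 red cell and platelet markers found had their lowest summed level in YL2 (301 FPKM, against 377 to 1725 FPKM elsewhere). Yet 2 of them, SLC4A1 and ITGA2B, were highest in YL2, and the part of these markers was not tested either. MMRN2 (multimerin 2), an endothelial matrix protein, was at 0.519 FPKM in TL1 and 4.94 in TL2, 7.27 in YL1 and 5.36 in YL2, 0.767 in TH1 and 1.06 in TH2, and 3.96 in YH1 and 12.2 in YH2. Of the 8 libraries, TL1, TH1 and TH2 were the lowest, each with 58 to 101 reads on the gene.

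**Figure D4:**
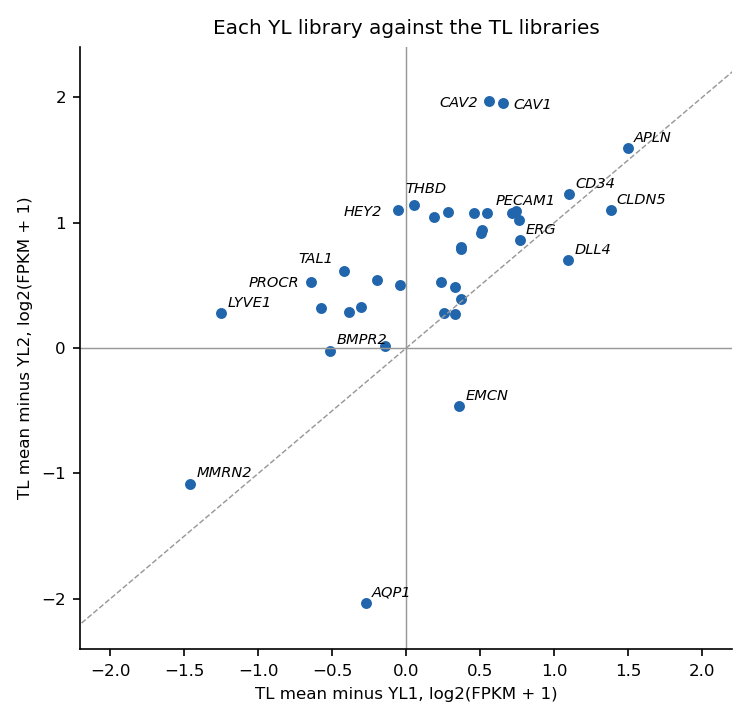
Mean of the 2 TL libraries minus YL1 (x axis) and minus YL2 (y axis) on the log2(FPKM + 1) scale, 1 point per tested member, with the dashed line marking equal differences. The TL mean is above YL1 for 25 members, above YL2 for 34 and above both for 24; CAV1 and CAV2 lie far above the dashed line and AQP1 far below it.

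Markers of several other cell types also had higher means in TL than in YL. This was so for 10 of 10 tested mural markers (smooth muscle and pericyte, median log2 fold change 0.87), for 10 of 10 fibroblast markers (0.82) and for 11 of 11 cardiomyocyte markers (0.54), with 0 called in each list. Without YL2 the counts were 9 of 10 mural (0.73), 10 of 10 fibroblast (0.76) and 5 of 11 cardiomyocyte markers (-0.04). Of the leukocyte markers 4 of 11 had a higher mean in TL (median -0.0014), and 8 of 11 without YL2 (0.11). Summed mural levels were 357 and 349 FPKM in the TL pools and 242 and 142 FPKM in the YL pools. Summed fibroblast levels were 792 and 703 FPKM in the TL pools and 386 and 269 FPKM in the YL pools. Their part in the endothelial levels was not tested. In the other list of endothelial genes, 26 of 33 had a higher mean in TL, with a median log2 fold change of 0.32, and 25 of 33 without YL2 (0.26).

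The next comparison asked how the altitudes differ in Yorkshire pigs. No member passed the test between YH and YL, and 0% of all tested genes were called. This comparison uses the same YL libraries as the first. The mean was higher in YH for 34 of 38 members, against 54% of all tested genes, and the median log2 fold change (YH to YL) was 0.47 for members and 0.03 for all tested genes. At an unadjusted p under 0.05, 7 members (18.4%, against 4.39% of all tested genes) were higher in YH: CLDN5, ERG, CD34, SOX7, PROX1, CAV1 and CLEC14A. None was lower, where 1.58% of all tested genes were. Without YL2 there were 3 (CLDN5, ERG and CD34; 7.89%, against 3.41%), and the median log2 fold change of members was 0.22. The number was 14 without YL1 (36.8%, against 11.6%), 3 (7.89%) without YH1 (against 2.98%) and without TL1 or TL2 (against 2.86%), 1 without YH2 (2.63%, against 1.46%), and 0 when each library was scaled to the same FPKM sum (against 0.772%). The libraries did not overlap for 22 members higher in YH (57.9%, against 21.9%) and for 0 lower in YH, against 14.4% of all tested genes.

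CLDN5 had a log2 fold change of YH over YL of 1.04 (SE 0.21, limma adjusted p = 0.582) and of 1.18 without YL2. For ERG it was 0.81 (SE 0.21, limma adjusted p = 0.671) and for CD34 0.72 (SE 0.20, limma adjusted p = 0.691). These 3 genes had both YL libraries under both libraries of each other group. All 7 surface and junction members had a higher mean in YH than in YL, and so did all 6 secreted and anticoagulant members (0.16 to 1.51). Without YL2 the 7 surface and junction members were still above 0 (0.23 to 1.18), whereas THBD, MMRN1, PROCR and MMRN2 of the secreted and anticoagulant members were below 0 (down to -0.18). The highest value in the latter group was that of VWF. Markers of other cell types also had higher means in YH than in YL: 10 of 10 mural (median log2 fold change 0.84), 9 of 10 fibroblast (0.51) and 9 of 11 cardiomyocyte markers (0.43). Without YL2 these were 9 of 10 (0.47), 10 of 10 (0.36) and 2 of 11 (-0.20). In the other list of endothelial genes 30 of 33 had a higher mean in YH (0.58), and 27 of 33 without YL2 (0.36). Of the leukocyte markers 11 of 11 tested had a higher mean in YH, 6 of them at an unadjusted p under 0.05, and their summed level was 49.3 and 67.1 FPKM in the YH pools and 25.7 to 34.5 FPKM in the other 6 libraries. Their part in the endothelial levels was not tested.

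The third comparison asked how the breeds differ at highland. No member was called between TH and YH in the limma fit, where 0.0336% of all tested genes were. The mean was higher in TH for 18 of 38 members (47.4%), close to the 47.5% of all tested genes, and the median log2 fold change (TH to YH) was -0.15 for members and -0.03 for all tested genes. Without TH1 the member median turned to 0.04, and without TH2 it was -0.33. ECSCR and CLDN5 were higher and MMRN2 and CLEC14A lower in TH at an unadjusted p under 0.05, each pair 5.26% of the members, against 7.71% and 8.47% of all tested genes. Without TH1, SOX17, DLL4 and NRP2 were higher by that rule (7.89%, against 4.67%) and 0 members were lower, against 4.5%. Without TH2 there were 4 higher (10.5%, against 13.3%) and 8 lower (21.1%, against 15.9%), and without YL2 4 higher (10.5%, against 10.9%) and 6 lower (15.8%, against 11.8%). CLDN5 had a log2 fold change of 0.55 (SE 0.21, limma adjusted p = 0.284), and the 2 TH libraries (32.7 and 32.6 FPKM) lay above YH (20.1 and 24.1 FPKM). MMRN2 had a log2 fold change of -2.09 (SE 0.69, limma adjusted p = 0.233). A DESeq2 fit of recovered reads called it (adjusted p = 0.00509), as the only member (2.63%) beside 1.93% of all tested genes called there, whereas over the other alternatives the adjusted p ran up to 0.673. CLEC14A had a log2 fold change of -0.82 (SE 0.31, limma adjusted p = 0.273) and of -0.40 without TH1. Libraries that did not overlap were seen for 7 members higher in TH (18.4%, against 25.2%) and 13 lower in TH (34.2%, against 27.3%). In the other list of endothelial genes 5 of 33 had a higher mean in TH (median log2 fold change -0.30), and 18 of 33 without TH1 (0.06). Of the leukocyte markers 3 of 11 had a higher mean in TH (-1.09), and 7 were lower at an unadjusted p under 0.05. Their part in the endothelial levels was not tested.

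The fourth comparison asked how the altitudes differ in Tibetan pigs. No member was called between TH and TL, where 0.0504% of all tested genes were. The mean was higher in TH for 13 of 38 members, against 48% of all tested genes. The median log2 fold change (TH to TL) was -0.18 for members and -0.02 for all tested genes, and it was 0.08 for members without TH1. APLN, lower in TH, was the only member at an unadjusted p under 0.05 (2.63%, against 5.53%), with a log2 fold change of -1.17 (SE 0.38, limma adjusted p = 0.327) and of -0.64 without TH1. None was higher, where 5.81% of all tested genes were. The number lower was 9 without TH2 (23.7%, against 12.3%), 4 without YL2 (10.5%, against 8.58%) or YL1 (10.5%, against 8.56%), 2 without TL1 (5.26%, against 2.51%) and 0 without TH1 (against 3.76%) or TL2 (against 2.47%). The number higher was 3 without TH1 (7.89%, against 4.58%) and 3 without TH2 (7.89%, against 10.6%). In the other list of endothelial genes 7 of 33 had a higher mean in TH (-0.28), and 22 of 33 without TH1 (0.09). Cardiomyocyte markers had a higher mean in TH for 2 of 11 (-0.42), and for 0 of 11 without TH1 (-0.53), and fibroblast markers for 3 of 10 (-0.10), and for 8 of 10 without TH1 (0.41), and the part of these cell types was not tested. In both libraries of TH, PECAM1, CLDN5, ECSCR, THBD (thrombomodulin, the anticoagulant receptor of endothelium) and RAMP2 lay above both of TL (13.2%, against 24%), and 9 members lay below (23.7%, against 24.5%).

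The 2 TH pools differed from each other more than the TL or YH pools did. The level was lower in TH1 than in TH2 for 30 of the 38 members and by more than 1 on the log2 scale for 8. Von Willebrand factor (VWF; chr5:67005339-67078256), the clotting protein stored in endothelial granules, was at 1.07 FPKM (105 reads) in TH1 and 22.8 FPKM (2368 reads) in TH2. It was at 15.4 and 13.97 FPKM in the TL pools, 24.4 and 25.9 in the YH pools and 10.4 and 6.42 in the YL pools, so that TH1 lay under all other libraries and TH2 was the third highest. CALCRL, NRP2, FLI1, EMCN, AQP1, SOX17 and APLN were the other members lower by that much. NRP2, a co-receptor of lymphatic and venous vessels, was at 0.345 FPKM in TH1, 3.37 in TH2 and 1.197 to 2.12 in the other 6. EMCN (endomucin), a mucin of veins and capillaries, was at 6.72 FPKM in TH1, 22.2 in TH2 and 13.8 to 26.4 in the other 6.

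The low level in TH1 did not extend to every member. CLDN5 had nearly the same level in both TH libraries, and PECAM1, RAMP2, ECSCR, EGFL7 and ACVRL1 were higher in TH1. ACVRL1, at 17.5 FPKM in TH1 and 8.20 in TH2, was the only member higher in TH1 by more than 1 on the log2 scale. EGFL7, a secreted vessel protein, was at 59.9 FPKM in TH1 and 30.3 in TH2, with 39.0 and 33.7 in the TL pools, 33.3 and 30.1 in the YH pools and 30.6 and 24.9 in the YL pools, so that TH1 was the highest of the 8. Compared with the median of the other 7 libraries, 7 members were lower by more than 1 on the log2 scale in TH1 (VWF, AQP1, MMRN2, CALCRL, EMCN, FLI1 and NRP2) and ECSCR was higher by more than 1. Of all tested genes, 8.45% were lower and 5.63% higher in TH1 by that measure. Summed fibroblast markers were at 236 FPKM in TH1 and 688 FPKM in TH2, and 47.8% of the reads on genes were mitochondrial in TH1 against 33.1% in TH2. Their part in the endothelial levels was not tested.

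**Figure D5:**
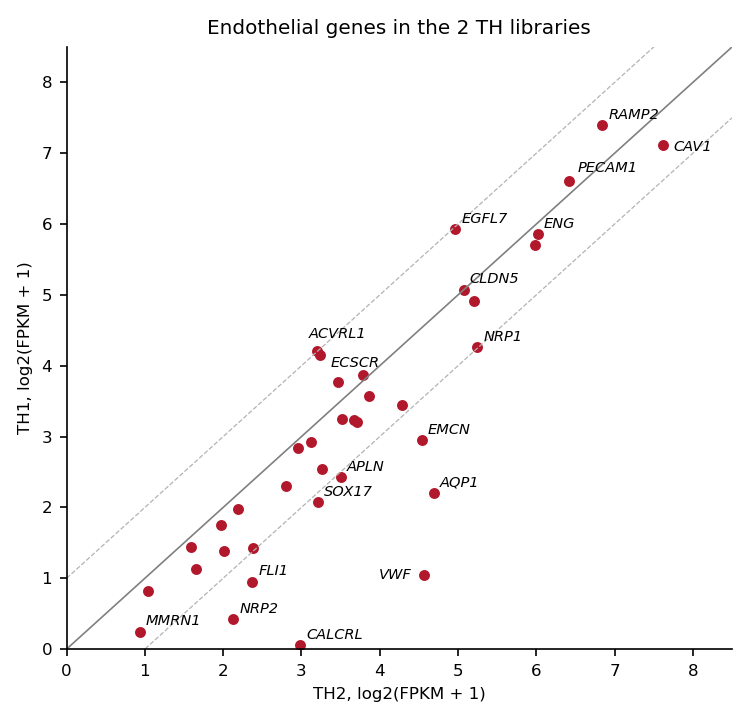
Level of the 38 tested members in TH2 (x axis) and TH1 (y axis), both as log2(FPKM + 1); the solid line marks equal levels and the dashed lines a difference of 1. VWF, CALCRL, AQP1, NRP2, FLI1, EMCN, SOX17 and APLN lie under the lower dashed line, whereas RAMP2, PECAM1 and CLDN5 lie on or above the solid line.

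The lymphatic markers were low. LYVE1, the hyaluronan receptor of lymphatic endothelium that is also found on cardiac macrophages, was at 1.18 and 2.14 FPKM in the TH pools, 3.24 and 1.68 in the TL pools, 3.12 and 3.97 in the YH pools and 7.03 and 1.78 in the YL pools. PROX1, the transcription factor that sets lymphatic identity and is also present in heart muscle, was at 1.62 and 3.04 FPKM in the TH pools, 2.29 and 1.81 in the TL pools, 3.58 and 4.07 in the YH pools and 2.49 and 1.09 in the YL pools. PDPN (podoplanin) was at 1.68 and 4.21 FPKM in the TH pools, 5.003 and 2.56 in the TL pools, 3.87 and 4.56 in the YH pools and 5.89 and 2.71 in the YL pools. For LYVE1 and PDPN the highest value was in YL1, and the FPKM of the YL pair lay further apart than those of any other group. The 3 genes had log2 fold changes of -0.49 to 0.17 for TL over YL and of -0.79 to -0.48 for TH over YH, and none was called in either. All 3 had a lower mean in TH than in YH, but without TH1 PDPN was at 0.0018 and the range was -0.53 to 0.0018. For TL over YL, LYVE1 and PDPN were below 0 and PROX1 above 0. Without YL2 all 3 were below 0 for TL over YL (-1.25 to -0.20).

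Averaged over both altitudes, 11 members (28.9%, against 7.58% of all tested genes) were higher in Tibetan than in Yorkshire hearts at an unadjusted p under 0.05, and MMRN2 was lower (2.63%, against 5.92%). No member was called in the limma fit, where 0.0504% of all tested genes were, and DESeq2 called MMRN2 (2.63%, against 2.17%). Without YL2 there were 9 higher (23.7%, against 8.75%) and 5 lower (13.2%, against 7.97%), and without TH2 there were 8 lower (21.1%, against 11.8%). The number higher was 7 (18.4%) without TL1 (against 4.69%), YH1 (against 4.51%) or YH2 (against 5.82%) and 6 (15.8%) without TL2 (against 4.36%). When each library was scaled to the same FPKM sum 0 were higher (against 0.68%) and 2 lower (5.26%, against 7.67%), and the median log2 fold change was -0.25 for members and -0.39 for all tested genes. The 4 Tibetan libraries lay above the 4 Yorkshire libraries for PECAM1, ECSCR, CAV2, RAMP2 and DLL4 (13.2%, against 4.57%), and the reverse was seen for 0 members, against 3.47%. CLDN5 had a log2 fold change of 0.89 (SE 0.15, limma adjusted p = 0.0714, range over alternatives 0.0282 to 0.773), CD34 of 0.67 (SE 0.14), ECSCR of 0.89 (SE 0.23) and PECAM1 of 0.69 (SE 0.18). For CAV2 and CLDN5 these averages include the YL libraries described above. The other list of endothelial genes had a higher mean in Tibetan hearts for 16 of 33 (median log2 fold change -0.02), with 3 higher and 1 lower at an unadjusted p under 0.05, and for 25 of 33 without TH1 (0.22). Mural markers had a higher mean in Tibetan hearts for 7 of 10 (0.42) and fibroblast markers for 8 of 10 (0.39), and without YL2 these were 8 of 10 (0.24) and 6 of 10 (0.20). Without TH1 they were 10 of 10 (0.74) and 10 of 10 (0.68). Cardiomyocyte markers had a higher mean for 9 of 11 (0.19), for 3 of 11 without YL2 (-0.10) and for 8 of 11 without TH1 (0.06). Of the leukocyte markers 2 of 11 had a higher mean in Tibetan hearts (-0.50), and 5 were lower at an unadjusted p under 0.05. Their part in the endothelial levels was not tested. The average over both breeds gave 3 members higher at highland at an unadjusted p under 0.05 (CLDN5, ERG and ECSCR; 7.89%, against 4.72%) and 0 lower, against 2.5%. The number higher was 9 without TH1 (23.7%, against 6.56%), 11 without YL1 (28.9%, against 9.44%), 6 without TH2 (15.8%, against 7.34%) and 1 (2.63%) without TL2 (against 2.83%) or YH2 (against 2.09%), and it was 12 without TH1 and YL2 together (31.6%, against 12.5%). It was 0 when each library was scaled to the same FPKM sum (against 0.672%). The number lower was 4 without TH2 (10.5%, against 5.2%) and 3 without YL2 (7.89%, against 4.36%). Leukocyte markers had a higher mean at highland for 10 of 11 (median log2 fold change 0.31), 5 of them at an unadjusted p under 0.05, mural markers for 8 of 10 (0.33), fibroblast markers for 6 of 10 (0.12), cardiomyocyte markers for 7 of 11 (0.10) and the other list of endothelial genes for 23 of 33 (0.09). Without YL2 the cardiomyocyte markers were higher for 1 of 11 (-0.30) and the other list of endothelial genes for 17 of 33 (0.0023). Without TH1 these were 4 of 11 (-0.13) and 28 of 33 (0.34), and fibroblast markers were higher for 9 of 10 (0.42). In that average no member's libraries were separated in either direction, against 1.63% (higher) and 1.06% (lower) of all tested genes. None was called there either, where 0.0336% of all tested genes were.

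The breed difference was also compared between the altitudes. The interaction, taken as the altitude difference in Tibetan pigs minus that in Yorkshire pigs, was below 0 for 34 of 38 members and above 0 for 4 (10.5%, against 49.5% of all tested genes). Its median was -0.66 for members and -0.01 for all tested genes. It was -0.42 without TH1, -0.37 without YL2 and -0.20 without both. Several other lists also had few genes above 0: 1 of 11 cardiomyocyte (median -0.69), 2 of 10 mural (-1.01), 1 of 10 fibroblast (-0.67) and 3 of 11 leukocyte markers (-1.02), and 3 of 33 in the other list of endothelial genes (-0.79). Without TH1 the fibroblast median was 0.11, and without YL2 the cardiomyocyte median was -0.24. Their part in the endothelial levels was not tested. No member was called, where 0.0336% of all tested genes were, and 7 (18.4%, against 7.16%) were below 0 at an unadjusted p under 0.05: CD34, SOX7, HEY1, CLEC14A, ROBO4, APLN and ERG. None was above 0 by that rule, where 3.78% of all tested genes were. Without TH1 and YL2 there were 4 (10.5%, against 10.3%), CD34, SOX7, CLDN5 and VWF, and the share of members was then near that of all tested genes. The number was 14 without YL1 (36.8%, against 11.9%), 12 without TH2 (31.6%, against 14.3%) and 2 to 4 without any other single library: 4 (10.5%) without YH1 (against 4.35%) or YL2 (against 7.95%), 3 (7.89%) without TH1 (against 5.43%) or YH2 (against 3.93%) and 2 (5.26%) without TL1 (against 4.11%) or TL2 (against 3.77%). It was 1 when each library was scaled to the same FPKM sum (2.63%, against 1.97%).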

How the data were processed

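RNA of 8 heart pools was sequenced. The authors mapped the reads to Sscrofa10.2 with TopHat 2.0.9 and deposited FPKM values from Cufflinks 2.1.1 with Ensembl release 72 genes (per their methods; the submitters' processing notes also name Bowtie 0.12.5, TopHat2 2.0.9 and DESeq 1.10.1). They also deposited a normalized signal per gene, which is a read number times 1 factor per library. Reads were recovered from it by dividing by the most frequent value, and 99.7% to 99.8% of low values came out whole within 0.05. These reads gave the depth and the count-model alternatives. In them edgeR called 0 of 11913 genes in each comparison, and DESeq2 called 1 member in each of 3 (2.63% of members, beside 1.47% to 2.17% of all tested genes). A further 8 columns, the authors' group means and ratios, were not used.

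FPKM were tested as log2(FPKM + 1) with limma 3.58.1 (trend, R 4.3.3) over all 8 libraries with a term per group, on genes that reached 1 FPKM in 2 or more libraries. The added 1 makes the differences of low genes smaller than on the FPKM scale. For a call, the Benjamini-Hochberg adjusted p had to be under 0.01 and the log2 fold change more than 1 in size. Alternatives were another pseudocount, other filters and scalings, a replicate block, edgeR 4.0.16, DESeq2 1.42.0 and leaving out libraries. The scripts were tested on simulated data. The description label of the YL samples names the TL file, so YL was taken from their titles, breed and column names.

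The members and lists were chosen with earlier results of these data known. Every library's value is given for members at an unadjusted p under 0.05 in 1 of the 4 pairwise comparisons, for the 10 with the highest mean, and for the defining and lymphatic markers. Other members named were chosen after their values were seen.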

Additional observations from a re-analysis of the deposited data

Results flagged for a closer look

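In 7 of the 38 tested members both libraries of one group lay above both of the other in 1 breed or at 1 altitude and below them in the other breed or at the other altitude. Among all 11913 tested genes 15.5% showed such a pattern, and 18.4% of the members is close to that share. The value given for each is the interaction on the log2 scale, the altitude difference in Tibetan pigs minus that in Yorkshire pigs, from the limma fit, and none passed after adjustment over all tested genes.

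The altitude difference had opposite directions in the 2 breeds for CD34 (-0.98, adjusted p = 0.357), ROBO4 (-0.84, adjusted p = 0.407) and ENG (-0.67, adjusted p = 0.502). For these, TL lay above TH and YH above YL. The breed difference had opposite directions at the 2 altitudes for CLEC14A (-1.23, adjusted p = 0.395) and VWF (-2.67, adjusted p = 0.525), with TL above YL and YH above TH. Both patterns were present for SOX7 (-1.17, adjusted p = 0.357) and for HEY1, a target of Notch (-1.28, adjusted p = 0.395). HEY1 was at 2.35 and 2.92 FPKM in the TH pools, 4.28 and 5.47 in the TL pools, 5.38 and 4.16 in the YH pools and 4.12 and 1.83 in the YL pools. Without TH1 the interaction was -0.91 for VWF and -0.81 for CLEC14A, and without YL2 it was -0.85 for HEY1 and -0.46 for ENG. TH1 or YL2 was the lowest library for CLEC14A, VWF, ROBO4, SOX7, ENG, HEY1 and CD34.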

How the results depend on the processing

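No member was called under any alternative on FPKM or in edgeR, and 1 member was called in DESeq2 in each of TH vs. YH (MMRN2), TL vs. YL (CD34) and Tibetan vs. Yorkshire (MMRN2), beside 1.93%, 1.47% and 2.17% of all tested genes. The count at an unadjusted p, chosen after seeing the data, was 12 higher members between TL and YL. It was 7 among genes with a mean of at least 10 FPKM, where 15 members were tested, 0 when each library was scaled to 1 FPKM sum, and 7 to 18 when single libraries were left out, with 7 without YL2 or TL2 and 18 without YL1. With that scaling the median log2 fold change of all tested genes was -0.50 in TH vs. YH, -0.23 in TL vs. YL and -0.39 in Tibetan vs. Yorkshire, against -0.03, 0.02 and -0.01 without it, and the member medians there were -0.67, 0.22 and -0.25. Leaving out single libraries gave member medians of -0.41 to 0.084 in TH vs. TL (0.084 without TH1) and of -0.90 to -0.37 for the interaction. Without TH1 and YL2 together, an alternative chosen after seeing the data, these were 0.084 and -0.20. The direction of single named members was the same in 1619 of 1708 values. Part of these values could not turn, so the share is no measure of robustness. The fold change stays the same by design with moderation without trend, a replicate block or a fit of only the groups compared. The same holds when a library outside the pair is left out. The cause of these shifts was not tested. With 2 pools per group, a lone remaining library was assumed to vary like those of the other groups.

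The labels share only the replicate numbers between groups, and the deviations of equally numbered libraries correlated at -0.08 to 0.12 between groups. With a replicate block 0 members were called in any comparison. At an unadjusted p under 0.05, 11 were higher in TL than in YL, against 673 of the 11913 tested genes. The median log2 fold change stayed at 0.55, which the block cannot change because both replicate numbers occur in every group.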

Other observations

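The 4 genes of the set that were matched by gene ID only had levels in the range of the named members. S1PR1, the sphingosine phosphate receptor of endothelium, was at 10.99 and 34.2 FPKM in the TH pools, 24.8 and 27.5 in the TL pools, 30.3 and 31.9 in the YH pools and 22.2 and 12.9 in the YL pools, and was lowest in TH1 and YL2. ESAM, an endothelial junction molecule, was at 3.95 and 9.16 FPKM in the TH pools, 8.81 and 9.45 in the TL pools, 9.29 and 10.8 in the YH pools and 7.61 and 4.55 in the YL pools, again lowest in the same pair of libraries. ICAM1, which binds leukocytes, was at 6.96 and 6.87 FPKM in the TH pools, 5.49 and 6.28 in the TL pools, 3.97 and 5.55 in the YH pools and 3.68 and 4.01 in the YL pools, and did not share the low TH1 value.

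SELE and SELP were covered by 3 to 62 reads per library.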
